A study of Mus musculus with 12 samples.

Results

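Macrophages that take up lipid in adipose tissue, atheroma, injured brain and tumors share a set of genes named after lipid-associated macrophages, and 10 of them are described here in M2-like polarized bone marrow-derived macrophages (BMDM) with and without IFNβ. They are Trem2, Tyrobp, Gpnmb, Spp1, Lgals3, Cd9, Cd63, Lpl, Fabp5 and Apoe. From the 56748 genes of the count table they were chosen by symbol as known markers of TREM2-type lipid-associated macrophages and by their high counts in these libraries, so their high levels are a description and not a result. All 10 passed the filter on low counts, as did 15033 genes in all. BMDM from female C57BL/6J mice were grown with M-CSF at 20 ng/mL, given IL4 at 10 ng/mL over 48 hours to polarize them, and then held in 1 of 4 conditions over 72 hours. They were left as untreated control, or received rIFNβ at 1500 pg/mL, eGFP supernatant, or Ifnb1eGFP supernatant diluted to the same IFNβ concentration. Both supernatants were taken from the mouse melanoma line YUMM5.2 after doxycycline (Dox) treatment, the line carrying a lentiviral, tetracycline-responsive cassette for Ifnb1 and eGFP or for eGFP alone, and its cells had been kept in Dox at 1 µg/mL for 72 hours. Medium without supernatant is thus the reference for rIFNβ, and eGFP supernatant, which also comes from Dox-treated cells, is the reference for Ifnb1eGFP supernatant. The eGFP supernatant was diluted in the same proportion. Each condition had 3 libraries, described as 3 mice per condition, and whether the same mice served all conditions is not stated.

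TREM2 is a surface receptor for lipids, lipoproteins and cell debris, and it signals through the adaptor DAP12, the product of Tyrobp, which recruits the kinase SYK. The program that TREM2 helps to maintain includes enzymes and carriers of lipid uptake such as lipoprotein lipase, fatty acid binding proteins and apolipoprotein E. It also includes secreted or lysosomal proteins such as osteopontin (Spp1), galectin-3 (Lgals3) and GPNMB, and tetraspanins of endosomes and exosomes such as CD9 and CD63. In tumors such macrophages are mostly discussed as immunosuppressive.

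The libraries held 31526034 to 45348457 counts, and no gene of the 10 had fewer than 5334 counts in any library, so counting error was small beside the spread between libraries. Levels are in CPM, that is, counts scaled to a common TMM-corrected library total of 1000000, and errors are the SD of 3 libraries unless named as SE. All 12 interferon-stimulated genes listed rose in both comparisons of IFNβ with its own reference, for example Irf7 by 6.15 ± 0.642 (log2, SE) with Ifnb1eGFP supernatant over eGFP supernatant and by 7.89 ± 0.702 with rIFNβ over untreated control. Without eGFP supernatant replicate 2, in which Irf7 was at 45.2 CPM where the other libraries of that condition had 11.01 and 6.63, the first value was 7.40 ± 0.351, and all 12 genes still rose. Some libraries stood apart. Ifnb1eGFP supernatant replicates 1 and 2 differed from each other by far more than counting error (59.3 for the chi-square divided by its degrees of freedom), where the other pairs within a condition had 5.72 to 25.5. As log2 deviations from the condition mean, the median of the 10% of genes with the highest GC content minus that of the 10% with the lowest was −0.43 in replicate 1 and 0.42 in replicate 2. It was −0.12 to 0.11 in the other 10 libraries. In eGFP supernatant replicate 2, interferon-stimulated genes were raised, with Ifit3 at 125 CPM where the other libraries of that condition had 15.9 and 7.05. Results that rest on replicate 2 of either supernatant are also given without it. Leaving out Ifnb1eGFP supernatant replicate 1 instead was among 19 alternative fits. For Trem2, Lgals3 and Apoe the range over these fits is given. Markers of macrophages were abundant, and their sum over 7 genes was 14122 to 18457 CPM in the libraries without IFNβ and 9648 to 10581 CPM in those with it. This lower sum came from Lyz2, which had means of 9415 CPM in untreated control, 12396 with eGFP supernatant, 4111 with Ifnb1eGFP supernatant and 3472 with rIFNβ, and from Itgam. Both fell in each comparison of IFNβ with its reference, while 4 of the 7 markers rose (Adgre1, Cd68, Mertk and Fcgr1) and Csf1r did not pass the test. The textbook marker of IL4 polarization Arg1 was near 0 in every condition (means of 0.26 to 0.66 CPM), while Mrc1 was at 660 to 825 CPM. Retnla had means of 55.2 to 63.4 CPM and Mgl2 of 3.32 to 4.87 CPM. Chil3 had 72.8 CPM in untreated control, 74.9 with eGFP supernatant, 128 with Ifnb1eGFP supernatant and 116 with rIFNβ. Of these 5 markers 1 rose and 0 fell in each comparison of IFNβ with its reference.

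The 10 genes together made up 5.50% ± 0.093 (SD, n = 3) of all counts in untreated control libraries and 5.76% ± 0.163 with eGFP supernatant. The share was 3.33% ± 0.114 with Ifnb1eGFP supernatant and 3.35% ± 0.055 with rIFNβ. The share ranged from 3.24% to 3.46% in the libraries with IFNβ and from 5.42% to 5.89% in those without, so that the 2 sets of libraries did not overlap. Gpnmb, the most abundant of the 10, supplied 2.04% to 2.36% of all counts in the libraries without IFNβ and 1.16% to 1.301% in those with it.

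On the scale of CPM per kilobase of the Ensembl canonical transcript, which allows levels to be set between genes, Gpnmb led in untreated BMDM at 5513 ± 245 (SD, n = 3). It was followed by Spp1 at 4470 ± 197, Lgals3 at 3773 ± 20.5, Lpl at 3205 ± 32.8, Tyrobp at 1671 ± 25.8, Fabp5 at 1226 ± 71.5, Trem2 at 1143 ± 28.5, Cd9 at 697 ± 12.1, Cd63 at 657 ± 7.25 and Apoe at 191 ± 16.9. Among neighbours in this order only the libraries of Fabp5 (1146 to 1282) and Trem2 (1122 to 1175) overlapped. By the mean over all 12 libraries, with and without IFNβ, Gpnmb, Spp1 and Lgals3 were above 99.9% of the genes tested. Apoe, the lowest, was above 98.98% of them. In IFNβ-treated cells the order differed. With Ifnb1eGFP supernatant Gpnmb still led at 3164 ± 261, but Lgals3 (2227 ± 426), Lpl (2108 ± 149) and Spp1 (1995 ± 65.3) overlapped, and Apoe at 488 ± 162 stood above Cd63 (417 ± 4.86, overlapping) and Cd9 (134 ± 9.55). With lengths from merged exons instead, Spp1 was ahead of Gpnmb, Tyrobp ahead of Lpl and Cd9 ahead of Fabp5 and Trem2 in untreated cells. Ranks between these genes thus rest on the length used.

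For 7 of the 10 genes RefSeq (GRCm38.p6) supplied 10 promoter windows of 250 bases before to 50 bases after a transcript start, and Lpl, Fabp5 and Tyrobp had no entry. Windows were searched on both strands for the motifs ISRE (GAAA, any 2 bases, GAAA), GAS (TTCNNNGAA), STAT6 (TTC, any 4 bases, GAA), MiT/TFE (TCANGTGA), AP-1 (TGANTCA) and PU.1 (GAGGAAGT), which stand in 3.44%, 8.3%, 6.95%, 4.18%, 7.81% and 3.2% of all 32851 promoter windows. A match describes letters and is not shown to be bound. The 250 bases before the start of Spp1 (chr5:104434861-104435110, plus strand), Lgals3 (chr14:47373610-47373859, plus strand), Trem2 (chr17:48346151-48346400, plus strand) and Cd9 (chr6:125494761-125495010, minus strand) are shown as examples of genes whose transcripts fell most (Cd9 and Spp1), fell less (Lgals3) or had no change that passed the test (Trem2) in the comparisons that follow. Capitals mark the matches. For Spp1 these are ISRE on the opposite strand at −157 to −148 (read there as TTTCCTTTTC) and PU.1 at −113 to −106, counted from the start. For Lgals3 they are STAT6 at −238 to −229 and −225 to −216. The second of these holds letters that match the MiT/TFE pattern at −224 to −217 (TCAGGTGA, with G at the free base of the pattern). For Trem2 it is AP-1 at −9 to −3. No match was found in the windows of Cd9, Cd63 and Apoe or in the second window of Spp1. Gpnmb has AP-1 letters at 8 to 14 after the start, beyond the bases shown.
Spp1: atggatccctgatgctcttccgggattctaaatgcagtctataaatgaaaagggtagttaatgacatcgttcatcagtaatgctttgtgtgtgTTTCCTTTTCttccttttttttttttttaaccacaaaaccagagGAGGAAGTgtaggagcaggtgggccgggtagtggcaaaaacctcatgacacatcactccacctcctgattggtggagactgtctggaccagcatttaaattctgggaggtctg
Lgals3: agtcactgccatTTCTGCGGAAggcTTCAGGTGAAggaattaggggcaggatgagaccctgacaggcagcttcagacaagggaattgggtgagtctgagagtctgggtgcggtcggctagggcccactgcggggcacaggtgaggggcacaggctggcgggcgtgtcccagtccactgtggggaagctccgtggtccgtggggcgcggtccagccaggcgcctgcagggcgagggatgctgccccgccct
Trem2: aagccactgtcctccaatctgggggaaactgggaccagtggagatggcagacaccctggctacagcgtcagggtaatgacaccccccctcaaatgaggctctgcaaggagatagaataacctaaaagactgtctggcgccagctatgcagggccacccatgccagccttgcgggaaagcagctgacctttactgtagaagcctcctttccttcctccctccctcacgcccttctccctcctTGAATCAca
Cd9: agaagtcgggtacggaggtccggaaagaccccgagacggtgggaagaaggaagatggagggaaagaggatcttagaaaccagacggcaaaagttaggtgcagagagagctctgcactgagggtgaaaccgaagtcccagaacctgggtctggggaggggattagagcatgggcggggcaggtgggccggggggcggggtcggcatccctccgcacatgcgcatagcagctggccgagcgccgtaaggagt

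**Figure D1:**
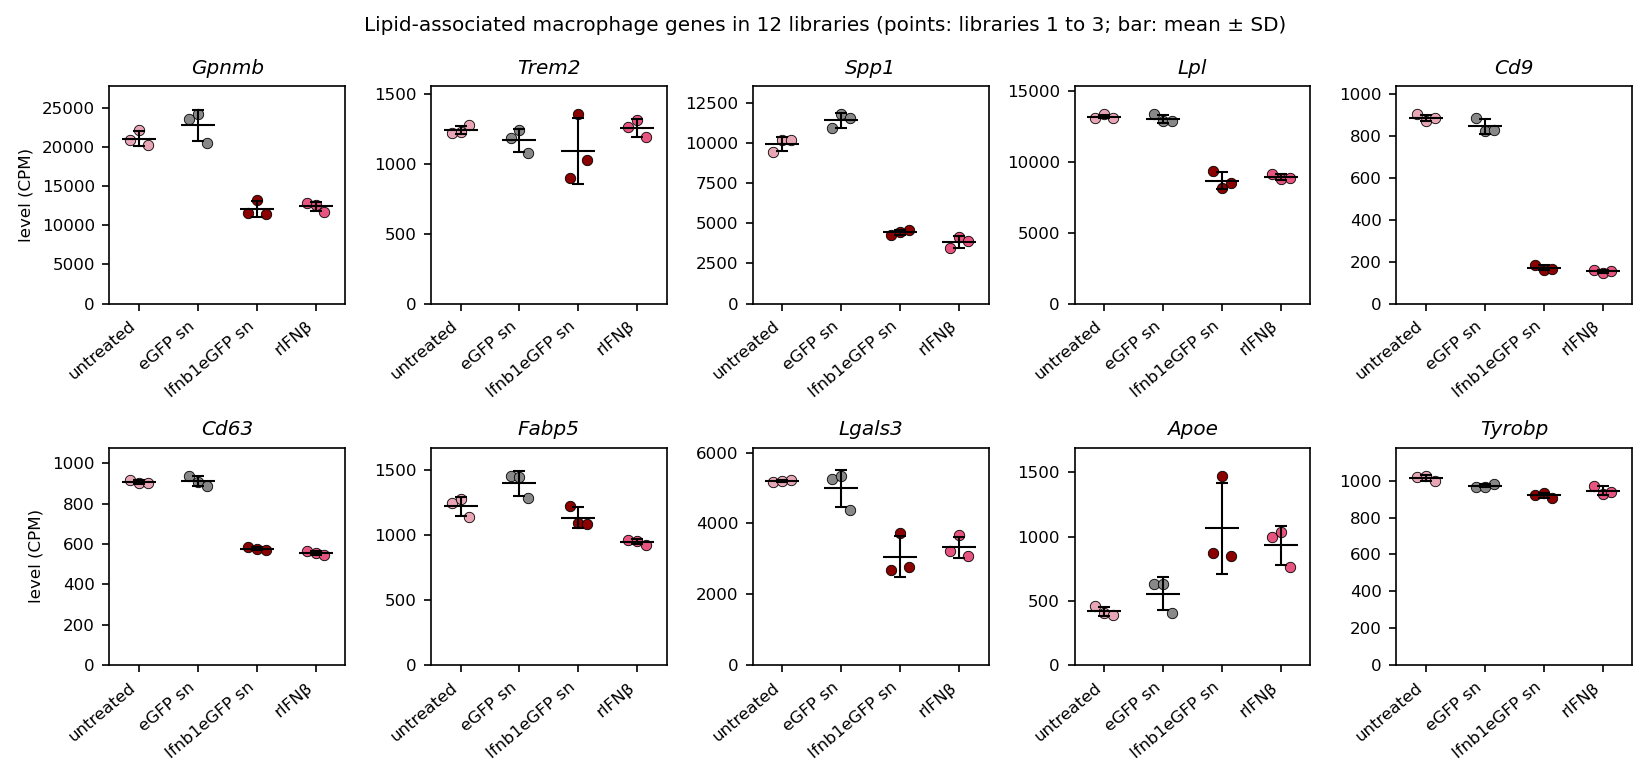
Level of each of the 10 genes in CPM (vertical axes, linear and from 0) in the 4 conditions, with a point for each of the 3 libraries and a black bar with whiskers for the mean ± SD; sn stands for supernatant. Cd9, Spp1, Gpnmb, Lpl, Cd63 and Lgals3 are lower in the 6 libraries with IFNβ, Apoe is higher, and the Ifnb1eGFP libraries of Trem2, Lgals3 and Apoe are spread, with replicate 2 at the top.

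The first question was how the genes responded to tumoral IFNβ, comparing Ifnb1eGFP supernatant with eGFP supernatant, and to IFNβ alone, comparing rIFNβ with untreated control. Of the 10 genes, 7 fell and 1 rose with Ifnb1eGFP supernatant, and 8 fell and 1 rose with rIFNβ (edgeR's quasi-likelihood test, Benjamini-Hochberg adjusted p of at most 0.05 over all genes tested). Changes were common in these cells, where 55.1% of all genes tested changed with Ifnb1eGFP supernatant and 55.3% with rIFNβ. Of all genes tested, 25% fell and 30.1% rose with Ifnb1eGFP supernatant, and 24.6% fell and 30.7% rose with rIFNβ. The 10 genes were chosen for high counts, where small changes are easier to call. The shares of all genes are therefore not a background matched to them. The median log2 fold change of the 10 genes was −0.62 and −0.60, where that of all genes tested was 0.03 and 0.04. Cd9 was the 1 gene of the 10 that also passed the thresholds of the study's methods (a log2 fold change of 2 or more in size with an adjusted p of 0.01 or less), in both comparisons, as 5.39% and 5.77% of all genes did. In both comparisons the libraries of the compared conditions did not overlap for 9 of the 10 genes, 8 lower and 1 higher, while of all genes tested 26.6% were lower and 32.4% higher without overlap with Ifnb1eGFP supernatant and 29.7% and 36.4% with rIFNβ. Both comparisons have references of their own and share no library, but they were fitted in 1 model. As these are bulk libraries, fewer cells of a type and less RNA per cell cannot be told apart. Without Ifnb1eGFP supernatant replicate 2 the first count was 8 genes lower and 1 higher, where 27.7% of all genes tested were lower and 28.9% higher. Without eGFP supernatant replicate 2 it was 7 lower and 1 higher, where 21.7% and 26.2% of all genes tested were.

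**Figure D2:**
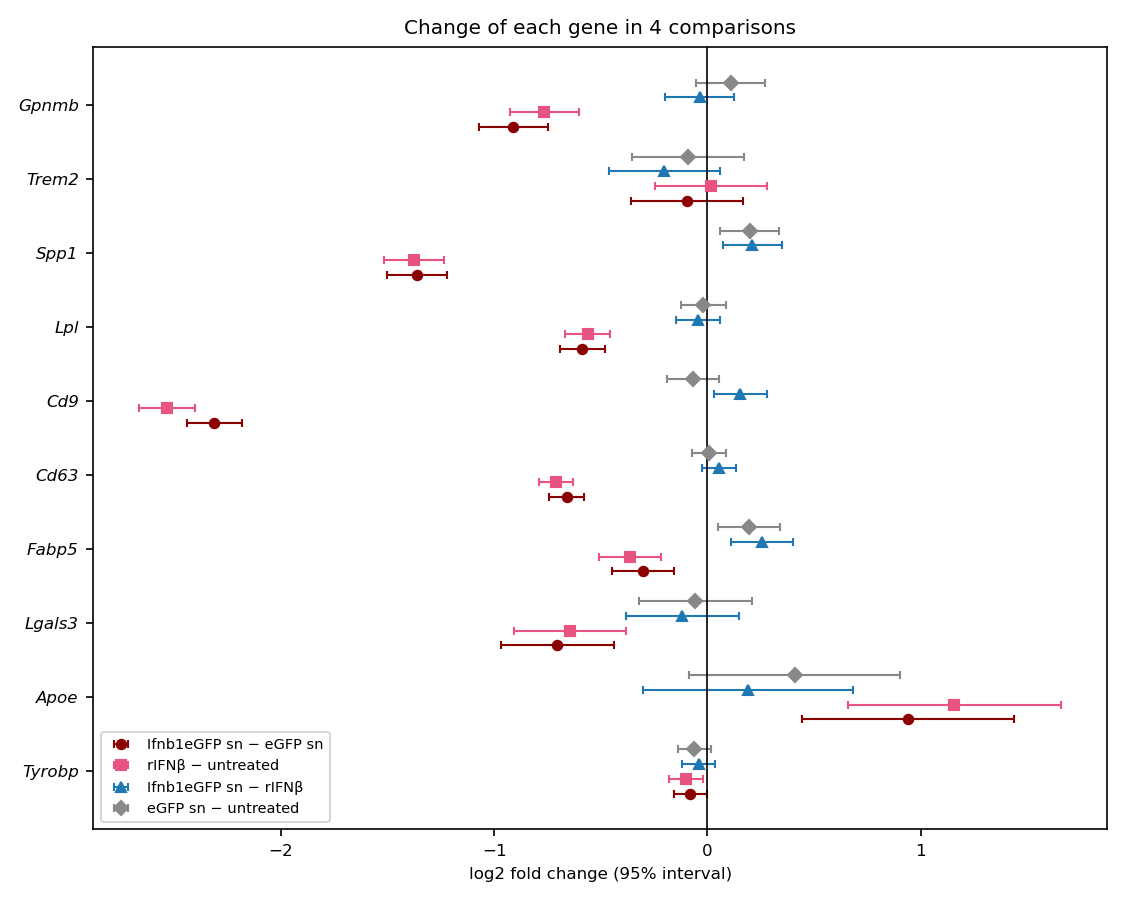
Log2 fold change of each of the 10 genes (horizontal axis) in 4 comparisons, with 95% intervals from the quasi-likelihood model as whiskers; sn stands for supernatant. The intervals of both comparisons of IFNβ with its reference lie below 0 for Gpnmb, Spp1, Lpl, Cd9, Cd63, Fabp5, Lgals3 and Tyrobp and above 0 for Apoe. For Tyrobp they end close to 0, at −0.002 with Ifnb1eGFP supernatant and −0.023 with rIFNβ. Those of Trem2 include 0 in all 4 comparisons.

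The receptor and its adaptor moved little. Trem2 (chr17:48653429-48661175 of GRCm39, plus strand) had 1220, 1231 and 1278 CPM in untreated control replicates 1 to 3, 1185, 1244 and 1077 with eGFP supernatant, 899, 1354 and 1028 with Ifnb1eGFP supernatant and 1263, 1316 and 1192 with rIFNβ. All 4 conditions overlapped, and the lowest and the highest of the 12 values were both from Ifnb1eGFP supernatant. The log2 fold change was −0.10 ± 0.119 (SE) against eGFP supernatant (adjusted p = 0.525, 95% interval −0.36 to 0.17) and 0.02 ± 0.119 for rIFNβ (adjusted p = 0.920, interval −0.25 to 0.28). Without Ifnb1eGFP supernatant replicate 2, Trem2 was lower, with a log2 fold change of −0.28 against eGFP supernatant (adjusted p = 0.00788) and −0.38 against rIFNβ (adjusted p = 0.0314). Over the 19 alternative fits, which include leaving out replicate 1 instead, the first value ran from −0.28 to −0.01. The second ran from −0.38 to −0.08. The transcript of Trem2 has a GC content of 57.54%, above that of 88.8% of the genes tested. Its deviations from the condition mean were −0.26, 0.33 and −0.07 (log2) in Ifnb1eGFP supernatant replicates 1 to 3. Cd63 and Tyrobp, with GC contents of 56.08% and 55.52%, deviated little. In replicates 1 and 2 Cd63 deviated by 0.016 and 0.001 and Tyrobp by 0.004 and 0.019. Over the 12 libraries, the deviations of Trem2 ran with the GC difference of each library described above (r = 0.97). This r was 0.86 for Lgals3, 0.74 for Apoe, 0.61 for Gpnmb and 0.28 for Spp1. It was −0.87 for Lpl, −0.72 for Cd9, −0.38 for Fabp5, −0.04 for Cd63 and −0.06 for Tyrobp. The cause of the deviations was not tested. With the trends of GC content and length removed within conditions, the log2 fold change against eGFP supernatant was −0.11 (adjusted p = 0.0441).

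Tyrobp (chr7:30113170-30117010, plus strand) was the steadiest of the 10, at 1021, 1026 and 996 CPM in untreated control, 966, 968 and 983 with eGFP supernatant, 923, 932 and 905 with Ifnb1eGFP supernatant and 971, 928 and 939 with rIFNβ. Every library with IFNβ was below every library of its reference, though by small steps. With rIFNβ it fell by 0.10 ± 0.0354 on the log2 scale (adjusted p = 0.0314), a call that was lost under 7 of 19 alternatives. Against eGFP supernatant its change of −0.08 ± 0.0353 did not pass (adjusted p = 0.0767), and it passed under 3 of 19 alternatives.

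The transcripts of the secreted and lysosomal proteins fell. Gpnmb (chr6:49013426-49047863, plus strand) encodes a transmembrane glycoprotein of lysosomes and melanosomes. It had 20871, 22105 and 20268 CPM in untreated control, 23557, 24163 and 20528 with eGFP supernatant, 11593, 13249 and 11461 with Ifnb1eGFP supernatant and 12889, 12624 and 11710 with rIFNβ. The libraries with IFNβ lay far below all others. Gpnmb was 1.88-fold lower with Ifnb1eGFP supernatant (log2 fold change −0.91 ± 0.0737, adjusted p = 1.05e-06) and 1.70-fold lower with rIFNβ (−0.76 ± 0.0735, adjusted p = 4.01e-06).

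Spp1 (chr5:104582165-104589235, plus strand), which encodes the secreted integrin and CD44 ligand osteopontin, had 9457, 10216 and 10216 CPM in untreated control and 10927, 11805 and 11563 with eGFP supernatant. It had 4291, 4471 and 4579 CPM with Ifnb1eGFP supernatant and 3461, 4137 and 3927 with rIFNβ. Again no library with IFNβ reached any library without it. The fall was 2.57-fold with Ifnb1eGFP supernatant (log2 −1.36 ± 0.0645, adjusted p = 1.43e-08) and 2.59-fold with rIFNβ (−1.37 ± 0.0645, adjusted p = 1.09e-08). Spp1 is the gene whose window above holds the ISRE letters. The annotation places Gm42793 on the same strand with 362 exon bases shared with Spp1, and its 123 to 477 counts per library are few beside those of Spp1.

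Lgals3 (chr14:47605208-47623624, plus strand) encodes galectin-3, a lectin that binds β-galactosides on damaged endosomes and at the cell surface. Untreated control libraries had 5168, 5192 and 5224 CPM and eGFP supernatant libraries 5253, 5345 and 4394. With Ifnb1eGFP supernatant there were 2698, 3742 and 2757 CPM, and with rIFNβ 3222, 3661 and 3090. All libraries with IFNβ were below those without, and Ifnb1eGFP supernatant replicate 2 stood high within its condition. Lgals3 was 1.63-fold lower with Ifnb1eGFP supernatant (log2 −0.70 ± 0.120, adjusted p = 0.000416, and −0.87 without that replicate, adjusted p = 8.79e-06) and 1.56-fold lower with rIFNβ (−0.64 ± 0.120, adjusted p = 0.000757). Over the 19 alternative fits, which include leaving out replicate 1 instead, the log2 value with Ifnb1eGFP supernatant ran from −0.87 to −0.63.

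The tetraspanins Cd9 and Cd63 encode membrane proteins that organize endosomal and exosomal membranes. Cd9 (chr6:125437210-125471778, minus strand) had 902, 872 and 883 CPM in untreated control, 886, 822 and 828 with eGFP supernatant, 184, 162 and 165 with Ifnb1eGFP supernatant and 158, 147 and 154 with rIFNβ. This was the largest separation among the 10 genes. Cd9 was 4.96-fold lower with Ifnb1eGFP supernatant (log2 −2.31 ± 0.0583, adjusted p = 1.90e-10) and 5.79-fold lower with rIFNβ (−2.53 ± 0.0588, adjusted p = 1.20e-10). Its pseudogene Cd9-ps had 0 to 13 counts per library. Cd63 (chr10:128731528-128748709, plus strand) had 902 to 920 CPM in untreated control, 888 to 938 with eGFP supernatant, 570 to 584 with Ifnb1eGFP supernatant and 548 to 566 with rIFNβ. Its libraries with IFNβ formed a narrow band below the rest, with a 1.58-fold fall with Ifnb1eGFP supernatant (log2 −0.66 ± 0.0363, adjusted p = 4.58e-08) and a 1.63-fold fall with rIFNβ (−0.71 ± 0.0364, adjusted p = 2.31e-08). The pseudogene Cd63-ps had 153 to 399 counts.

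Among the genes of lipid handling, Lpl and Fabp5 fell and Apoe rose. Lpl (chr8:69284603-69360100, plus strand) encodes lipoprotein lipase, which splits triglycerides of lipoproteins into fatty acids. It had 13101 to 13345 CPM in untreated control, 12863 to 13344 with eGFP supernatant, 8156 to 9351 with Ifnb1eGFP supernatant and 8776 to 9168 with rIFNβ. The libraries with IFNβ did not overlap the rest, and the log2 fold change of Lpl was −0.59 ± 0.0473 with Ifnb1eGFP supernatant (adjusted p = 1.02e-06) and −0.56 ± 0.0473 with rIFNβ (adjusted p = 1.33e-06). Fabp5 (chr3:10077602-10081674, plus strand) encodes a carrier of fatty acids in the cytosol. It had 1242, 1273 and 1138 CPM in untreated control, 1453, 1447 and 1283 with eGFP supernatant, 1225, 1089 and 1083 with Ifnb1eGFP supernatant and 963, 955 and 925 with rIFNβ. Each IFNβ condition was below its own reference, but Ifnb1eGFP supernatant overlapped untreated control. The fall was 1.23-fold with Ifnb1eGFP supernatant (log2 −0.30 ± 0.0663, adjusted p = 0.00250) and 1.28-fold with rIFNβ (−0.36 ± 0.0663, adjusted p = 0.000670).

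Apoe (chr7:19430034-19434947, minus strand) encodes apolipoprotein E, a lipid carrier that TREM2 binds. It had 459, 402 and 391 CPM in untreated control, 628, 628 and 407 with eGFP supernatant, 868, 1472 and 850 with Ifnb1eGFP supernatant and 999, 1037 and 760 with rIFNβ. Each library with IFNβ was above each without it, and replicate 2 of Ifnb1eGFP supernatant was far above its condition. Apoe was 1.92-fold higher with Ifnb1eGFP supernatant (log2 0.94 ± 0.226, adjusted p = 0.00424) and 2.23-fold higher with rIFNβ (1.16 ± 0.227, adjusted p = 0.00107). Without that replicate the first log2 value was 0.63 (adjusted p = 0.0108). Over the 19 alternative fits, which include leaving out replicate 1 instead, it ran from 0.63 to 1.08. Apoe is also the gene of the 10 with the widest intervals, which ran from 0.44 to 1.44 and from 0.66 to 1.66. Its GC content of 56.95% is above that of 86.5% of the genes tested.

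**Figure D3:**
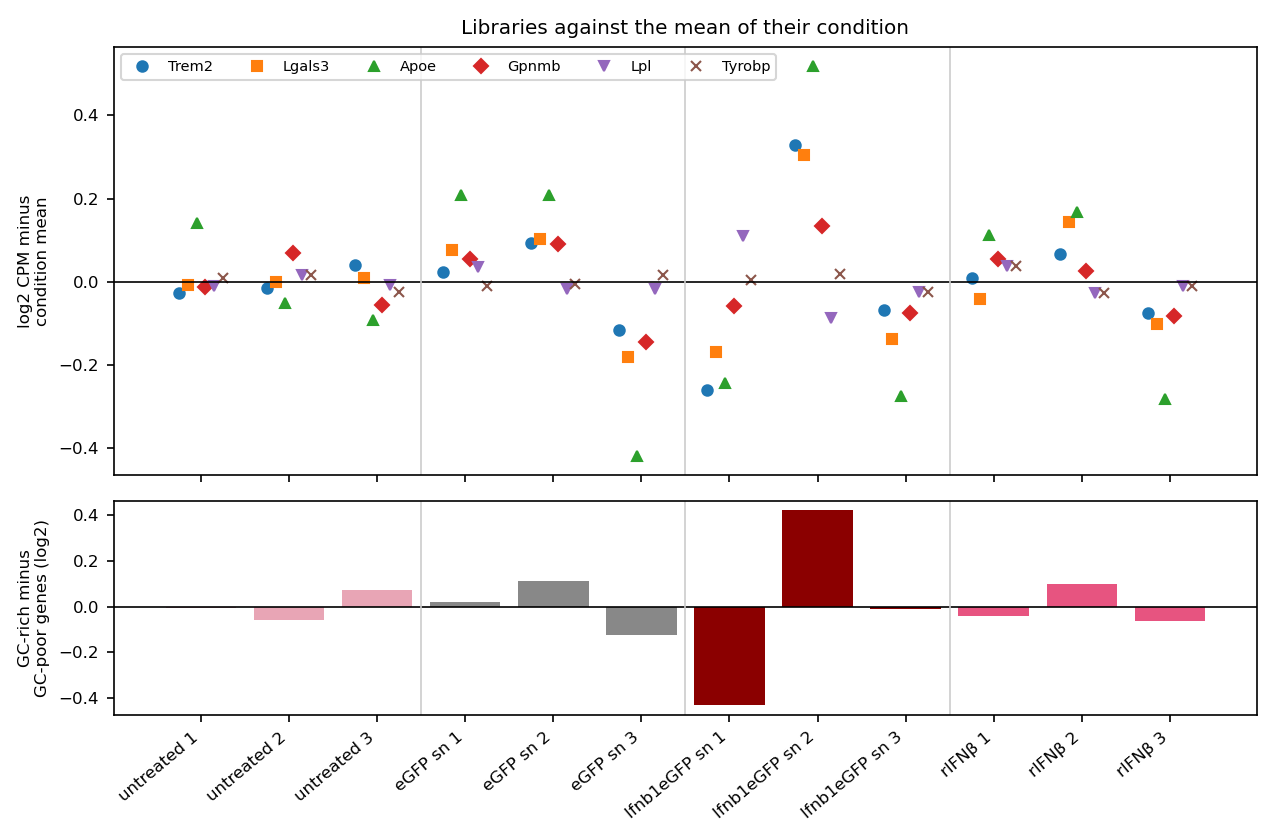
Upper panel, log2 CPM of 6 of the genes in each library minus the mean of its condition. Lower panel, the same deviation for the 10% of genes with the highest GC content minus that for the 10% with the lowest (log2, medians). In Ifnb1eGFP supernatant replicate 2, Trem2, Lgals3 and Apoe lie 0.33, 0.30 and 0.52 above their condition, the bar in the lower panel is 0.42, and it is −0.43 for replicate 1.

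The second question was whether the source of IFNβ or the supernatant itself mattered for these genes. Between Ifnb1eGFP supernatant and rIFNβ, 0 of the 10 genes passed the test, where 0.16% of all genes tested did. An unadjusted p under 0.05 was found for 3 of the 10, Spp1, Cd9 and Fabp5, and for 8.57% of all genes tested. DESeq2 called 1, Fabp5, and 1.03% of the 11253 genes to which it gave an adjusted p. With a replicate block 0 of the 10 passed, where 0.319% of all genes tested did. The result rests on Ifnb1eGFP supernatant replicate 2. Without that library Trem2 (−0.38, adjusted p = 0.0314) and Fabp5 (0.28, adjusted p = 0.0440) passed. Far more of all genes then passed too, as counted in the closing section. For Spp1, Cd9, Cd63 and Fabp5, 4 of the 10, each library with Ifnb1eGFP supernatant was above each with rIFNβ. Of all genes tested, 8.22% were separated in this direction and 12.8% in either. The differences were small: Spp1 0.21 (95% interval 0.07 to 0.35, adjusted p = 0.425), Fabp5 0.26 (0.11 to 0.40, adjusted p = 0.321) and Cd9 0.16 (0.03 to 0.28, adjusted p = 0.544). For Gpnmb the difference was −0.04 (−0.20 to 0.12) and for Apoe 0.19 (−0.30 to 0.68), the widest interval of the 10. These intervals bound what the 3 libraries per condition could show and do not establish that both sources act alike.

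Between eGFP supernatant and untreated control, 0 of the 10 genes passed the test, where 0.299% of all genes tested did. DESeq2 called 0 of the 10 and 1.66% of the 12374 genes to which it gave an adjusted p here. With a replicate block 1 of the 10 passed, Spp1 (0.20, adjusted p = 0.0482), where 0.812% of all genes tested did. An unadjusted p under 0.05 was found for 2 of the 10 and for 8% of all genes tested. These 2 were Spp1 (0.20, 95% interval 0.06 to 0.34, adjusted p = 0.345) and Fabp5 (0.20, 0.05 to 0.34, adjusted p = 0.376). The libraries of the 2 conditions were fully separated for 3 of the 10 genes, with Spp1 and Fabp5 higher and Tyrobp lower with eGFP supernatant, and for 15.5% of all genes tested. The interaction of IFNβ and supernatant, which asks whether IFNβ changed a gene to another extent with supernatant than without, was called for 0 of the 10 genes and for 0% of all genes, and had an unadjusted p under 0.05 for 1 of the 10 and for 4.4% of all genes. Its largest value was for Cd9 at 0.22 (95% interval 0.05 to 0.40, unadjusted p = 0.0162, adjusted p = 0.926), for which the fall with Ifnb1eGFP supernatant was the smaller.

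The wider list of lipid-associated macrophage markers, 24 genes other than the 10, moved in both directions. With Ifnb1eGFP supernatant 15 fell, 5 rose and 4 did not pass the test, and with rIFNβ 15 fell, 4 rose and 5 did not. With Ifnb1eGFP supernatant 62.5% of the list thus fell and 20.8% rose, beside 25% and 30.1% of all genes tested. Their median log2 fold change was −0.29 and −0.28. The largest falls were of Itgax, which encodes the integrin CD11c, from 776 ± 24.0 CPM with eGFP supernatant to 25.6 ± 2.48 with Ifnb1eGFP supernatant (log2 −4.93 ± 0.0884, adjusted p = 4.69e-11), and of the elastase Mmp12, from 8664 ± 530 to 1027 ± 157 (−3.08 ± 0.109, adjusted p = 1.69e-09). The lipid carrier Fabp4 fell by 1.81 and the scavenger receptor Colec12 by 1.55 on the log2 scale. Plin2, which coats lipid droplets, rose by 1.38 and the receptor kinase Axl by 1.24 (both named after their values were seen).

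Genes around TREM2 and DAP12 also moved both ways. Of 15 genes of DAP12 signaling and TREM2 shedding, 7 rose, 3 fell and 5 did not pass with Ifnb1eGFP supernatant (46.7% and 20.0%, beside 30.1% and 25% of all genes tested), and the counts were equal with rIFNβ. The kinase Lyn rose from 178 ± 9.67 to 681 ± 33.1 CPM with Ifnb1eGFP supernatant (log2 1.94 ± 0.0554, adjusted p = 4.29e-10) and the phosphatase Ptpn6 rose by 0.78, while the paracaspase Malt1 fell by 2.74. Of 11 other receptors that pair with DAP12, 9 passed the filter, 7 rose and 2 fell with Ifnb1eGFP supernatant (77.8% and 22.2% of those tested), with equal counts for rIFNβ. Cd300e rose from 0.79 ± 0.037 to 5.33 ± 1.05 CPM and Sirpb1a from 1.21 ± 0.266 to 7.93 ± 1.08 CPM, at levels far below that of Trem2 (1094 CPM in those libraries). The 2 that fell were the most abundant of the list (named after their values were seen). Cd300lb fell from 370 ± 14.1 to 321 ± 14.3 CPM and Clec5a from 70.9 ± 1.77 to 26.1 ± 1.83 CPM. The median log2 fold change of the 9 receptors was 1.54, where that of all genes tested was 0.03.

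**Figure D4:**
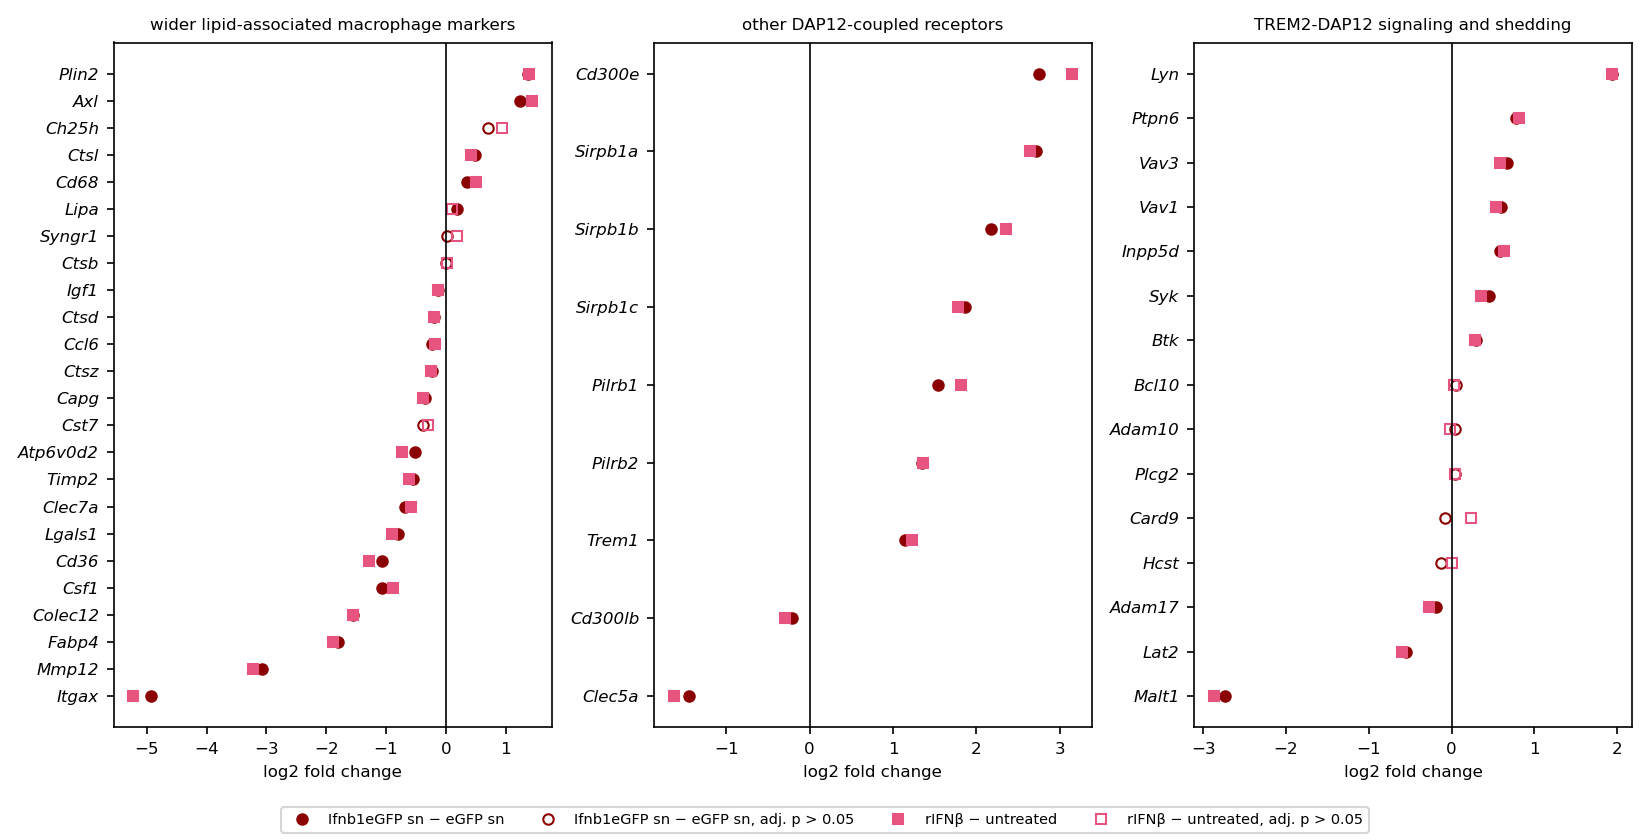
Log2 fold change (horizontal axes) of each gene of 3 lists in the comparison of Ifnb1eGFP with eGFP supernatant (circles) and of rIFNβ with untreated control (squares), filled where the adjusted p was at most 0.05 and open where it was above; sn stands for supernatant. Itgax and Mmp12 are furthest to the left among the wider markers, 7 of the 9 other DAP12-coupled receptors lie to the right of 0, and Lyn and Malt1 are at the opposite ends of the signaling list.

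Partners of the individual genes also moved both ways, and their counts stand beside 30.1% of all genes tested that rose and 25% that fell with Ifnb1eGFP supernatant. Of 21 partners of Lpl, Fabp5 and Apoe in lipoprotein and fatty acid handling, 19 passed the filter, 10 fell (52.6% of those tested), 5 rose (26.3%) and 4 did not pass the test with Ifnb1eGFP supernatant. The apolipoprotein E receptor Lrp8 fell from 7.79 ± 0.529 to 2.27 ± 0.291 CPM, while Angptl4, a secreted inhibitor of lipoprotein lipase, rose from 3.26 ± 0.547 to 12.9 ± 0.522 CPM (log2 1.98 ± 0.105). Among receptors of osteopontin, 4 of 8 fell and 2 rose, with a log2 fold change of −2.63 ± 0.0837 for Itgb3 and of 0.90 ± 0.0732 for its partner chain Itgav. Among other galectins and the galectin-3 binding protein, 3 of 5 tested rose (60.0%) and 1 fell (20.0%), with Lgals3bp from 420 ± 102 to 2484 ± 266 CPM and Lgals1 from 1247 ± 26.6 to 715 ± 26.0 CPM. Of 12 other tetraspanins 4 rose and 4 fell (33.3% each), shares near those of all genes tested, with log2 fold changes of 1.00 for Tspan3 and −0.97 for Cd81. Of the 4 MiT/TFE transcription factors, the family with known sites in lysosomal genes such as Gpnmb, Mitf fell by 0.68 ± 0.0421 (adjusted p = 1.14e-07), Tfec rose by 0.48 ± 0.0721, and Tfeb (−0.49 ± 0.237, adjusted p = 0.102) and Tfe3 (−0.04 ± 0.0717) did not pass.

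Markers of other cells were examined beside these results. Of 5 osteoclast markers, Dcstamp fell from 66.8 ± 9.22 to 3.09 ± 0.529 CPM (log2 −4.44 ± 0.165), Ctsk, Ocstamp and Acp5 also fell, and Calcr had 0 counts in every library. Their sum was 120 to 152 CPM in the libraries without IFNβ and 26.3 to 36.0 CPM in those with it. Fibroblast markers summed to 30.5 to 84.0 CPM without IFNβ and 50.4 to 79.5 CPM with it, with Col1a1 lower and Dcn and Pdgfra higher in the comparison with eGFP supernatant. Melanocyte markers, which would mark carried-over tumor cells, were at most 0.81 CPM in sum, and Tyrp1 was at 0 in all libraries. Neutrophil markers summed to 4.31 to 5.75 CPM without IFNβ and 0.15 to 0.73 CPM with it, nearly all of it S100a8, and dendritic cell markers to 1.22 to 1.71 and 0.27 to 0.45 CPM, mostly Zbtb46. Lymphocyte markers summed to at most 0.23 CPM. The part of such cells in the results was not tested.

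Among the 8326 genes with a mean of at least 10 CPM, the genes whose log2 CPM ran most like each of the 10 over the 12 libraries were found by Pearson r. Except for Trem2, these r mostly follow the contrast between libraries with and without IFNβ, which all points share. All are a description. Cd9 ran most like Rnf128 and Itgax (r = 0.999 for each), Cd63 like Dbi (0.999) and Cd9 (0.999), and Gpnmb like Psap, the lysosomal prosaposin gene (0.995), Mfge8 (0.993) and Rhob (0.993). Spp1 ran most like Tmem50a (0.996), Lpl like Epm2aip1 (0.998), Fabp5 like Gnptab (0.973), Apoe like Sec14l1 (0.989), and Lgals3 like Bbln (0.995). For Trem2 the closest were Tbcb (0.991), Scap (0.990) and Tcf3 (0.986), and for Tyrobp Gnas at 0.920. Trem2 had no such contrast, and its r follow the spread between libraries within conditions. In Ifnb1eGFP supernatant replicates 1 to 3 Tbcb had 39.6, 57.9 and 46.0 CPM, where Trem2 had 899, 1354 and 1028.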

How the data were processed

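Total RNA of M2-like polarized BMDM (TruSeq Stranded Total RNA) was sequenced for 12 libraries, 3 per condition. Per the methods, the authors used RSEM (v1.3.3) on a reference written as GRCm39 mm10, a name made of 2 builds, and they deposited the unnormalized expected counts of each Ensembl gene. Gene positions given here are GRCm39 (GENCODE M39) and promoter sequences are GRCm38.p6. The strand setting of the counting is not stated, so overlapping and antisense genes cannot be told apart from the genes described. All 12 columns of counts matched a sample description.

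Expected counts were rounded (12% of values were not whole) and analysed in R 4.3.3 with edgeR 4.0.16 (filterByExpr, TMM factors, a quasi-likelihood model over all 12 libraries). Conditions were compared with edgeR's quasi-likelihood test and Benjamini-Hochberg adjustment over the 15033 genes tested. SE is the log2 fold change divided by the square root of F. Alternatives were DESeq2 1.42.0, RLE factors, library totals, all genes without the filter, the replicate number as a block, a fit of only the compared conditions, leaving out each library, and, chosen after seeing the data, removal of GC content and length trends within conditions (99.53% of genes had a value). The analysis was also run on simulated counts in which few genes changed, in 1 condition. These had no library shifted in GC content and no pairing, so they do not test it for such features of these data. p-values set a difference against the spread between libraries, which the model estimates for each gene over all 12. The spread within each condition therefore enters every comparison. Each comparison of 2 conditions has 3 libraries against 3, for which an exact permutation test cannot go below 0.1. The 10 genes, the gene lists and the rule for named genes (all members, every gene of lists of up to 6, the 4 largest changes of longer lists, the 3 genes most like each member) were chosen with earlier results of these data known. Same-numbered libraries of Ifnb1eGFP supernatant and rIFNβ deviated together (r of 0.167 to 0.246 in 3 of 3 pairs), so a fit with a replicate block is given beside that comparison. The pairing comes from these correlations and not from the labels. Some genes that this rule names are not reported here.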

Additional observations from a re-analysis of the deposited data

How the results depend on the processing

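Apart from Trem2 and Tyrobp, the 8 genes called in both comparisons of IFNβ with its reference kept their direction and call under all 19 alternatives. The count with Ifnb1eGFP supernatant over eGFP supernatant was 8 to 9 of 10 and that with rIFNβ over untreated control 8 to 9. In the main fit 55.1% and 55.3% of all genes tested were called. For these comparisons, shares in the alternatives are given above only without replicate 2 of either supernatant. Tyrobp passed against eGFP supernatant with DESeq2 (adjusted p = 0.00263), RLE factors (0.0252) and without Ifnb1eGFP supernatant replicate 1 (0.0253). Its call with rIFNβ was lost with library totals (0.0732), no filter (0.242), GC and length trends removed (0.263) and without untreated control replicate 1 or 2 or rIFNβ replicate 2 or 3. Trem2 passed with GC and length trends removed (−0.11, adjusted p = 0.0441, against eGFP supernatant and −0.22, adjusted p = 0.0229, against rIFNβ), a fit whose p may be too small because the trend uses degrees of freedom that were not counted. Between Ifnb1eGFP supernatant and rIFNβ, 1 of the 10 genes was called with DESeq2, 1 with trends removed and 0 to 2 when libraries were left out. Without Ifnb1eGFP supernatant replicate 2 the 2 genes were Trem2 (lower) and Fabp5 (higher), and the count over all genes was 1051 instead of 24. The cause was not tested. Over all genes tested, this count was 116 with DESeq2, 41 without the filter, 48 with the replicate block, 2 with only the compared conditions and 509 with trends removed, and that for eGFP supernatant over untreated control was 45, against 205, 75, 122, 22 and 93. With libraries left out in turn these counts were 4 to 1051 and 16 to 76. The interaction count was 0, against 11 with DESeq2 and 1 without the filter.

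Deviations from the condition mean were correlated between libraries of the same replicate number in different conditions (mean r = 0.148 over 18 pairs, 0.058 to 0.252, 13 over 0.1) and less so between different numbers (mean r = −0.074 over 36 pairs, 1 over 0.1). Every pair exceeded 0.1 for Ifnb1eGFP supernatant with rIFNβ, but 1 or 2 of 3 did in the other comparisons. Each of the 12 libraries had its highest r with a library of its own number, a hint from the data that numbers mark something shared, which the labels do not state. In the model with the replicate block 1 gene, Spp1 (0.20, adjusted p = 0.0482), was called for eGFP supernatant over untreated control. The block changed no other call among the 10 genes. Low counts do not limit these results, since each of the 10 genes had over 5000 counts in every library.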
